A study of Mus musculus with 12 samples.

Results

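The CCN family of matricellular proteins was examined in bulk RNA-Seq of W-20 cells, a murine bone marrow stromal cell (BMSC) line. Its members were the genes annotated as *Ccn1*, *Ccn2*, *Ccn3*, *Ccn4* and *Ccn5*, chosen by name, 5 of the 56980 genes in the count matrix. All 5 passed the filter on low counts. The sixth member of the family, *Ccn6*, had 0 counts in all 12 libraries, which allows at most 3 counts, or 0.157 to 0.175 CPM (each count divided by the TMM-scaled library size), in each library as far as counting error goes. Unmodified (WT) cells and cells of the Y428F line were exposed for 2 hours to 50 nM parathyroid hormone (PTH) or to vehicle (PBS), with 3 libraries in each of the 4 groups. The study asked whether PTH acts on Hippo signaling and its effector YAP in stromal cells, and *Ccn1* and *Ccn2* are among its readouts. Median library totals were 18799284 counts for WT cells with vehicle, 17526225 for WT cells with PTH, 17673798 for Y428F cells with vehicle and 17811136 for Y428F cells with PTH. The study describes its data in general as coming from independent experiments, while the labels do not tie these libraries to separate cultures, so p-values measure the spread between these libraries, which may be technical.

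The Y428F libraries carry that name in their titles, whereas their genotype field reads WT. By the study's methods, stable lines were made from a Flag-tagged YAP plasmid with a CMV promoter and puromycin selection of positive clones, with Y428F (a tyrosine of YAP changed to phenylalanine) present alone or together with S381A. The study's text names the line of its RNA-Seq as the double mutant, S381A with Y428F, whereas the titles give only Y428F. No line with introduced WT YAP or with S381A alone was analysed here, and the mutation cannot be told apart from anything else that differs between the lines. *Yap1* had 181, 192 and 194 CPM in WT cells with vehicle, 245, 246 and 230 with PTH, 150, 141 and 149 in Y428F cells with vehicle and 171, 168 and 174 with PTH. The 4 groups did not overlap, and the values do not tell the endogenous gene from introduced YAP. Of the stromal markers, *Col1a1*, *Col1a2*, *Pdgfra*, *Pdgfrb*, *Cxcl12* and *Vim* were present in every group, whereas *Thy1* had 0 counts in all 12 libraries. The first WT library with PTH stood apart in a few genes, with at least 10 counts for 7 genes that had 0 counts in the other 11 libraries, against 0 to 2 such genes elsewhere. Without it, the log2 fold changes with PTH in WT cells were 1.04 for *Ccn1*, 1.90 for *Ccn2*, -0.13 for *Ccn3*, 0.21 for *Ccn4* and -0.43 for *Ccn5*, of which the last was no longer called. The differences between the lines with PTH were then 0.01, 2.03, 1.35, 1.38 and -1.91 in the same order, and the calls were as with all libraries. Deviations from the group mean also followed transcript length to a different degree in each library, with a Spearman correlation across genes from -0.416 in the first to 0.402 in the second Y428F library with PTH. In bulk RNA, fewer cells of a type and less RNA per cell cannot be told apart.

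CCN proteins are secreted into the extracellular matrix, where they act as adapters more than as building material. They bind integrins, syndecans, LRP receptors and growth factors such as TGF-β, BMPs and VEGF, and can be cut by matrix proteases. *Ccn1* (once called *Cyr61*) and *Ccn2* (once *Ctgf*) are immediate-early genes and widely used reporters of YAP with its DNA-binding partners, the TEADs. *Ccn3* (*Nov*) often acts against *Ccn2* and on bone formation, *Ccn4* (*Wisp1*) is a WNT target that favors osteogenesis, and *Ccn5* (*Wisp2*) lacks the C-terminal module of the other members and is known in stromal and fat precursor cells.

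In GRCm39, *Ccn1* (ENSMUSG00000028195.5) lies on the minus strand at chr3:145352720-145355738, and the other members lie on the plus strand. *Ccn2* (ENSMUSG00000019997.12) is at chr10:24471333-24474900, *Ccn3* (ENSMUSG00000037362.9) at chr15:54609012-54620154, *Ccn4* (ENSMUSG00000005124.11) at chr15:66763060-66795050 and *Ccn5* (ENSMUSG00000027656.8) at chr2:163662753-163675066. The 250 bases before the annotated start of *Ccn1* (chr3:145355739-145355988, minus strand, 54.8% GC) are shown because it was the most abundant member and responded to PTH in both lines. They are written from the 5′ to the 3′ end of the gene's own strand. Capitals mark the TEAD motif GGAATG, read as CATTCC on the opposite strand, and the short CRE (cAMP response element) motif TGACG, read as CGTCA.
Ccn1: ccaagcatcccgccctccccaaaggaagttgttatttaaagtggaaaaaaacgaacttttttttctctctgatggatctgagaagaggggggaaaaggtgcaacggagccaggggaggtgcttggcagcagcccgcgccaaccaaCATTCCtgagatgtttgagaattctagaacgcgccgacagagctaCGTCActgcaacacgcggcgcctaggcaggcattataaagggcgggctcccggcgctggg
*Ccn1* held 1 TEAD match, at bases -105 to -100 before its start, and 1 short CRE motif at bases -60 to -56. Part of the *Ccn4* window lies inside the gene as annotated, because its canonical transcript starts downstream of the gene's first base. The windows of *Ccn3*, *Ccn4* and *Ccn5* held none of the motifs searched on both strands, which were also the full CRE TGACGTCA (it contains the short one), the AP-1 site TGANTCA and the CArG box. Among windows of the same length before 21770 protein-coding genes, 12.1% held a TEAD match, 18% a short CRE motif, 1.69% a full CRE, 6.17% an AP-1 site and 1.4% a CArG box. A match describes these letters in this window and is not a measured site.

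Per length of transcript, *Ccn1* was the most abundant member in every group, and the order of the others differed between groups. In RPKM, the CPM divided by the kilobases of the longest annotated transcript, WT cells with vehicle had 107 ± 9.05 for *Ccn1* (SD, n = 3), followed by 27.3 ± 3.82 for *Ccn5*, 13.1 ± 0.514 for *Ccn3*, 6.46 ± 0.919 for *Ccn4* and 1.91 ± 0.170 for *Ccn2*. No neighbors in that order overlapped between libraries. In WT cells with PTH the levels were 224 ± 25.6 for *Ccn1*, 19.9 ± 1.25 for *Ccn5*, 12.2 ± 0.645 for *Ccn3*, 7.55 ± 1.17 for *Ccn2* and 7.38 ± 0.960 for *Ccn4*, and the last pair overlapped. In Y428F cells with vehicle they were 141 ± 1.50 for *Ccn1*, 33.6 ± 0.870 for *Ccn3*, 14.2 ± 0.188 for *Ccn4*, 7.57 ± 0.238 for *Ccn5* and 6.94 ± 0.0695 for *Ccn2*, with no overlap of neighbors. In Y428F cells with PTH they were 217 ± 21.5 for *Ccn1*, 30.1 ± 1.41 for *Ccn3*, 28.6 ± 3.30 for *Ccn2*, 19.1 ± 1.52 for *Ccn4* and 5.25 ± 0.800 for *Ccn5*. *Ccn2* and *Ccn3* overlapped in this group, and *Ccn2* had moved from the lowest member with vehicle to the third. These orders were the same when the length was the union of exons.

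Summed over the 5 members, the RPKM level was 156 ± 12.5 in WT cells with vehicle, 271 ± 26.8 with PTH, 203 ± 2.21 in Y428F cells with vehicle and 300 ± 24.0 with PTH. *Ccn1* held 68.6% of that sum in WT cells with vehicle and 82.6% with PTH, against 69.4% and 72.3% in Y428F cells. The share of *Ccn2* was 1.23%, 2.77%, 3.42% and 9.51% in the same order of groups, and that of *Ccn5* was 17.5%, 7.41%, 3.72% and 1.77%. *Ccn3* held 8.47%, 4.53%, 16.5% and 10.1%. *Ccn4* stayed between 2.72% and 6.96% in all 4 groups. Shares sum to a whole, so a larger share of one member lowers the others without a change in their own level.

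**Figure D1:**
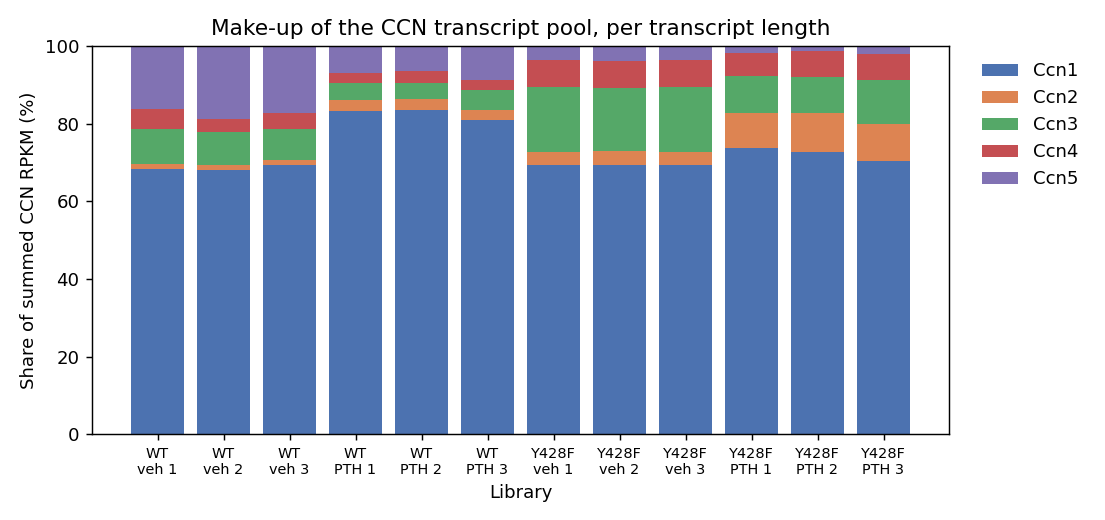
Share of each CCN gene in the summed RPKM of the 5 genes (y axis, %) in each of the 12 libraries (1 stacked bar each). *Ccn1* makes up a mean of 68.6% to 82.6% of the bars of a group, and the *Ccn2* layer is widest in Y428F cells with PTH, at a mean of 9.51%.

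In WT cells, PTH raised *Ccn1* and *Ccn2*, lowered *Ccn5*, and left *Ccn3* and *Ccn4* short of the threshold. These 3 calls among 5 members, 2 of them higher and 1 lower, stand beside 11.8% of the 15583 genes tested (6.88% higher, 4.91% lower), with a limit on the adjusted p of 0.05. The median log2 fold change was 0.20 over the members and -0.01 over all genes tested. Normalized by library totals alone, 38% of all called genes were higher in place of 58.4%, and the same members were called in the same directions.

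*Ccn2*, a matrix-bound promoter of connective tissue growth, had 4.87, 5.74 and 5.04 CPM with vehicle and 23.3, 21.5 and 17.1 CPM with PTH in WT cells. Every PTH library lay above every vehicle library, and the lowest PTH library still held 293 counts against 92 to 101 with vehicle. The fold change was 3.97, a log2 difference of 1.99 (95% confidence interval 1.70 to 2.27, adjusted p = 6.41e-07, edgeR). *Ccn1*, an integrin ligand in cell adhesion, had 196, 224 and 231 CPM with vehicle and 488, 483 and 395 CPM with PTH. The groups did not overlap, and the third PTH library was the lowest of its group for both genes. The log2 fold change of *Ccn1* was 1.08 (0.89 to 1.26, adjusted p = 3.19e-06, edgeR), a rise of 2.11-fold.

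*Ccn5* went the other way, with 45.6, 60.2 and 56.3 CPM with vehicle against 39.4, 36.9 and 41.9 CPM with PTH. The groups did not overlap, although the first vehicle library lay closer to the PTH libraries than to the other vehicle libraries. The log2 fold change was -0.45 (-0.66 to -0.23, adjusted p = 0.0104, edgeR). The call was lost when some libraries were left out, with an adjusted p of 0.0618 without the third vehicle library, 0.0639 without the first PTH library and 0.0646 without the second, over a range of 0.000993 to 0.0646 for all libraries left out in turn. *Ccn3* had 71.2, 76.7 and 75.7 CPM with vehicle and 73.5, 66.6 and 67.8 with PTH, and *Ccn4* had 38.0, 28.5 and 34.0 with vehicle and 38.1, 43.3 and 33.4 with PTH. The groups overlapped for both. Their log2 differences were -0.10 (-0.24 to 0.05, adjusted p = 0.418) and 0.20 (-0.05 to 0.44, adjusted p = 0.318), and these intervals hold the changes that the data leave possible.

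**Figure D2:**
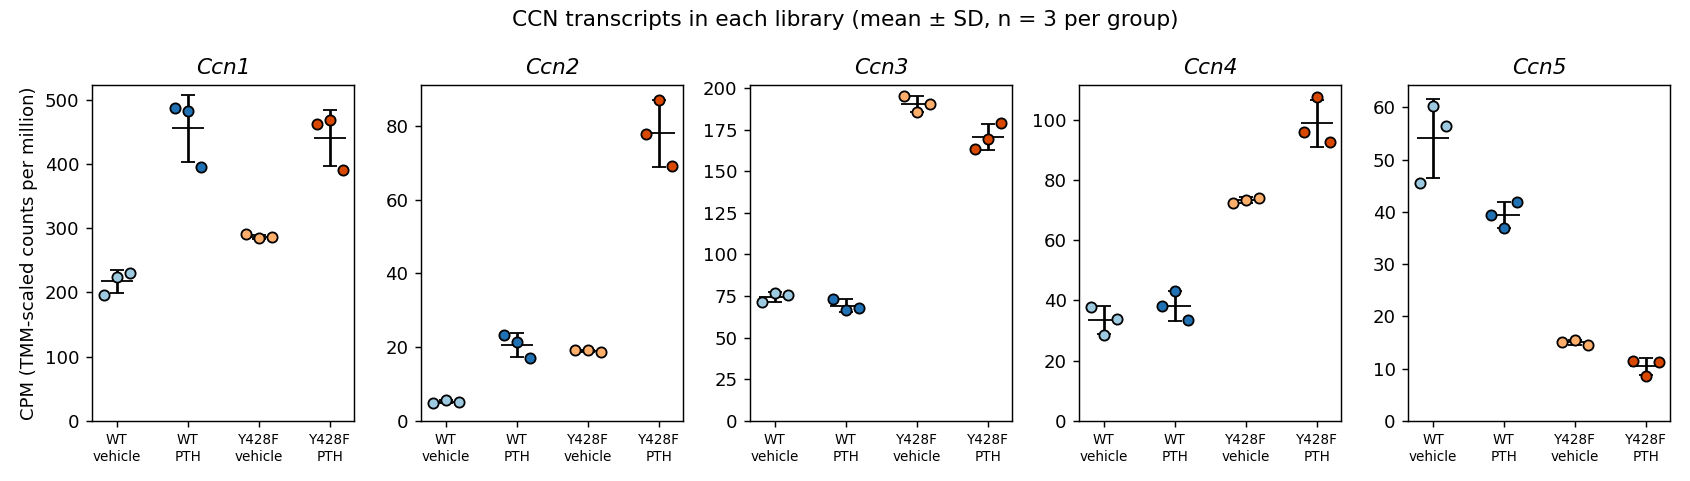
CPM of each CCN gene in each of the 12 libraries (points) with the mean and SD of each group of 3, each panel on its own linear axis from 0. *Ccn1* and *Ccn2* were higher with PTH in both lines, *Ccn3* and *Ccn4* differed mainly between lines, and *Ccn5* was lower with PTH and lower in Y428F cells.

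In Y428F cells, 4 of the 5 members were called for PTH against vehicle, 3 higher and 1 lower, where 12.4% of 17691 genes tested were called, 6.61% higher and 5.78% lower. The median log2 fold change of the members was 0.43 against -0.01 over all genes. *Ccn2* had 19.1, 19.1 and 18.7 CPM with vehicle and 77.8, 87.0 and 69.0 CPM with PTH, with no overlap. The log2 fold change was 2.04 (1.83 to 2.25, adjusted p = 5.01e-11, edgeR), or 4.11-fold. *Ccn1* had 290, 284 and 286 CPM with vehicle and 463, 469 and 390 with PTH, again without overlap, and rose by 0.62 on the log2 scale (0.45 to 0.79, adjusted p = 2.99e-05). As in WT cells, the third PTH library was the lowest for both genes.

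*Ccn4*, the WNT-responsive member, was called in Y428F cells, with 72.3, 73.6 and 74.2 CPM with vehicle and 96.2, 108 and 92.7 CPM with PTH. The PTH libraries all lay above the vehicle libraries, and the log2 fold change was 0.43 (0.25 to 0.61, adjusted p = 0.00226, edgeR). *Ccn5* had 15.2, 15.4 and 14.5 CPM with vehicle and 11.4, 8.59 and 11.2 with PTH, which also did not overlap. It fell by 0.53 on the log2 scale (interval of the change -0.78 to -0.27, adjusted p = 0.00585). *Ccn3* had 195, 186 and 191 CPM with vehicle and 163, 170 and 179 with PTH. Its libraries did not overlap either, yet its log2 difference of -0.16 (-0.28 to -0.04) missed the threshold with an adjusted p of 0.0699. It passed under 3 of the other settings, with an adjusted p of 0.048 in DESeq2, 0.0166 with library totals alone and 0.0362 with only genes of at least 10 counts in every library, and 0.0478 in edgeR without the first WT vehicle library.

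**Figure D3:**
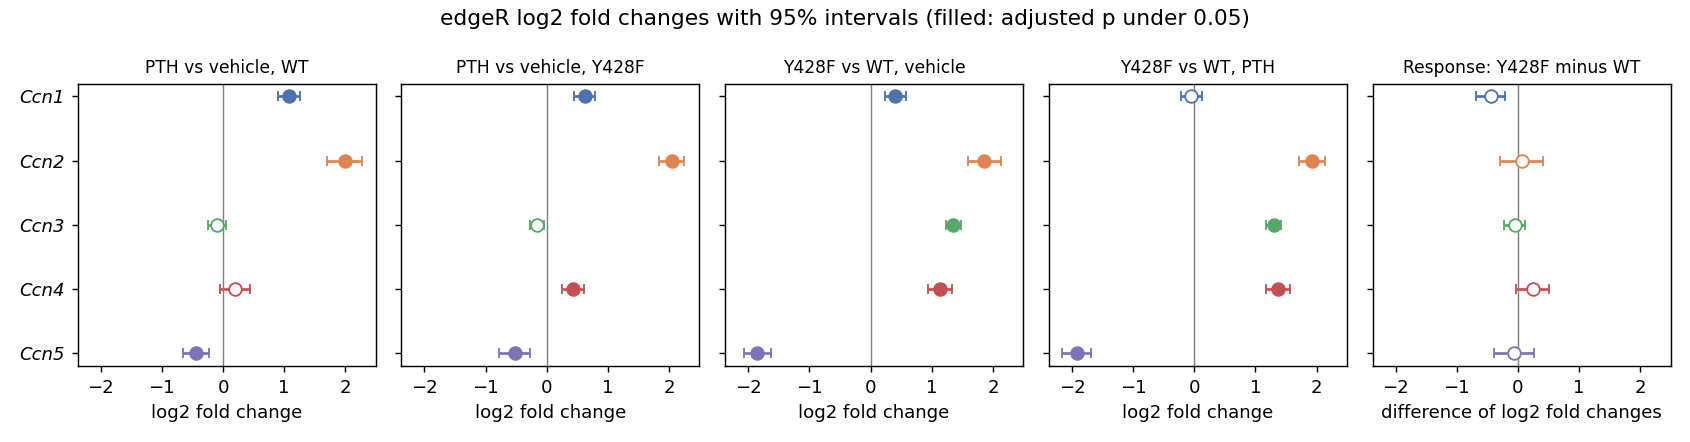
Log2 fold changes of the 5 CCN genes with 95% confidence intervals (edgeR, x axis) for PTH against vehicle in each line, Y428F against WT with each treatment, and the difference in response, filled where the adjusted p was under 0.05. *Ccn2* has the largest response to PTH in both lines (1.99 and 2.04), and *Ccn3*, *Ccn4* and *Ccn5* differ more between lines than with PTH.

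Some markers of cell types moved with PTH beside the CCN genes. Of the 6 stromal markers tested, 1 was higher and 1 lower in WT cells, and 1 was higher and 2 were lower in Y428F cells, beside 6.88% of all genes higher and 4.91% lower in WT cells and 6.61% and 5.78% in Y428F cells. *Pdgfra* changed by -0.59 on the log2 scale in WT cells (adjusted p = 0.00146, edgeR) and by -0.73 in Y428F cells (7.17e-05), *Vim* by 0.28 and 0.22, and *Col1a1* by -0.33 in Y428F cells. None of the osteoblast, chondrocyte, blood cell, endothelial and epithelial markers tested was called for PTH in either line. Of the 3 adipocyte markers tested, 1 was higher and 0 were lower in each line, beside the same shares of all genes. This was *Pparg*, the adipocyte regulator, which rose by 0.52 (adjusted p = 0.00135, edgeR) in WT cells and 0.71 (9.62e-07) in Y428F cells. *Fabp4* was not called, with 26.9 CPM with vehicle and 25.2 with PTH in WT cells, and 6.57 and 8.19 in Y428F cells. The part of the marker changes in the CCN responses was not tested.

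The difference in response, Y428F minus WT, was tested directly. None of the 5 members was called by edgeR in this test, in which 0.413% of 17691 genes were called, 0.17% with a larger and 0.243% with a smaller value in Y428F cells. At an unadjusted p under 0.05 the count was 1 (*Ccn1*), where 7.05% of all genes passed, and DESeq2 called 1 member, *Ccn1* again. For *Ccn1* the difference in log2 fold change was -0.45 (-0.69 to -0.21, adjusted p = 0.136, edgeR), a smaller rise in Y428F cells. The adjusted p was 0.0388 in DESeq2, 0.000179 with no filter on low counts and 0.0162 without the third WT PTH library, over a range of 0.0162 to 0.408 for libraries left out in turn. For *Ccn2* the difference was 0.06 (-0.29 to 0.41, adjusted p = 0.984), which leaves room for a response up to 0.41 larger or 0.29 smaller in Y428F cells. The intervals were -0.22 to 0.12 for *Ccn3*, -0.03 to 0.51 for *Ccn4* and -0.40 to 0.25 for *Ccn5*, so the call of *Ccn4* in Y428F cells and not in WT cells did not amount to a called difference.

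The balance of the 2 reporters was followed within each library, where scaling between libraries plays no part. WT cells with vehicle held 40.3, 39.0 and 45.8 *Ccn1* counts for each *Ccn2* count, and 20.9, 22.5 and 23.2 with PTH. Y428F cells held 15.2, 14.9 and 15.3 with vehicle and 5.95, 5.39 and 5.66 with PTH. The 4 groups did not overlap, and the ratio fell with PTH in both lines. As log2 of *Ccn2* over *Ccn1*, the change with PTH was 0.90 in WT cells and 1.42 in Y428F cells. A 2-sided exact permutation test gave p = 0.1 in each line, the smallest that 3 against 3 libraries allow, and p = 0.005 for both lines together with labels permuted within each line (mean change 1.16), which is also the smallest it can give. Groups that do not overlap must give these smallest values, so the test adds nothing to the fold changes of the 2 genes.

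**Figure D4:**
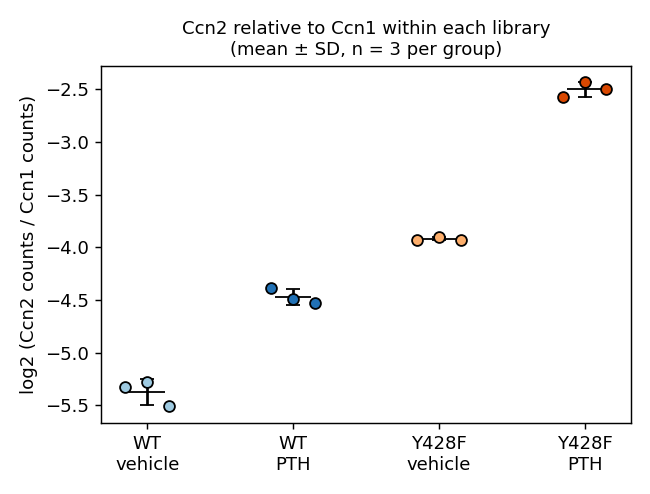
Log2 ratio of *Ccn2* to *Ccn1* counts in each library (points), with the mean and SD of each group of 3. Group means run from -5.37 in WT cells with vehicle through -4.47 and -3.92 to -2.50 in Y428F cells with PTH, with no overlap between groups.

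The lines differed in every member with vehicle, 4 higher and 1 lower in Y428F cells, in a comparison that called 45.1% of 17691 genes, 22.4% higher and 22.7% lower. The level of *Ccn2* was 3.63-fold higher in Y428F cells (log2 1.86, adjusted p = 1.77e-10, edgeR), *Ccn3* 2.56-fold (1.35, 1.19e-13) and *Ccn4* 2.19-fold (1.13, 3.1e-09). *Ccn1* differed least, by 0.40 on the log2 scale (adjusted p = 0.000393), and *Ccn5* was lower (log2 difference -1.85, adjusted p = 1.24e-11). The libraries of the lines did not overlap for any member. The vehicle level of *Ccn2* in Y428F cells, 18.9 ± 0.190 CPM, lay within the 17.1 to 23.3 CPM of PTH-treated WT cells. Chromosomes shifted between the lines as well. With vehicle, and counting genes of 4 CPM or more, the median difference (log2) was 0.25 on the *Ccn2* chromosome (chr10, 73.2% of 489 genes higher), 0.20 on the *Ccn3* and *Ccn4* chromosome (chr15, 72.1% of 434 genes higher), -0.17 on the *Ccn1* chromosome (chr3, 530 genes) and -0.06 on the *Ccn5* chromosome (chr2, 841 genes). The part of these shifts in the members' differences was not tested.

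With PTH, 4 members differed between the lines, 3 higher and 1 lower in Y428F cells, where 45.7% of genes were called, 22.8% higher and 23% lower. The log2 differences were 1.92 for *Ccn2* (adjusted p = 2.99e-12), 1.30 for *Ccn3* (2.57e-13), 1.37 for *Ccn4* (1.44e-10) and -1.92 for *Ccn5* (1.72e-11), each without overlap. *Ccn1* overlapped between the lines, at 455 ± 52.0 and 441 ± 43.7 CPM, with a log2 difference of -0.05 (-0.22 to 0.12, adjusted p = 0.674) whose sign turned to 0.02 with library totals alone. Both comparisons of the lines rest on the same WT and Y428F libraries as the comparisons with PTH. The stromal markers moved with the line too. Their summed level had medians of 25800 and 27000 CPM in WT cells with vehicle and PTH and of 18100 and 17000 CPM in Y428F cells, with *Col1a2* the most abundant. With vehicle 5 of the 6 tested were lower in Y428F cells and with PTH 6 of 6, beside 22.7% and 23% of all genes. With vehicle the log2 difference was -1.59 for *Pdgfra* and -1.51 for *Pdgfrb*, and the part of these markers in the CCN differences was not tested. Markers of other lineages differed as well, with vehicle *Fabp4* of adipocytes by -2.03 (26.9 to 6.57 CPM), *Sox9* of chondrocytes by -1.58 (55.2 to 18.5 CPM), *Runx2* of osteoblasts by -0.30 (90.2 to 73.2 CPM) and *Pparg* of adipocytes by 0.33 (31.7 to 39.9 CPM), while *Adipoq* and *Acan* had 0 counts in all libraries. The other osteoblast markers, *Sp7*, *Alpl*, *Bglap*, *Ibsp* and *Dmp1*, had at most 7 counts in any library. The blood cell gene *Ptprc* went from 0.853 to 2.79 CPM (log2 1.70), with *Cd3e* at 0 counts in all libraries. The epithelial cadherin *Cdh1* had 1 to 3 counts in the WT libraries with vehicle and 11 to 14 in Y428F cells (called higher), with *Epcam* at 0. The part of those other lineages was not tested either. *Cdh5*, an endothelial cadherin, rose from 0.810 to 7.95 CPM, while *Pecam1*, a defining endothelial gene, had at most 6 counts in any library.

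All 25 regulators of CCN transcription were tested. They were YAP, TAZ, TEAD and VGLL factors, SRF and its coactivators, AP-1, SMAD, CREB and WNT factors, *Egr1* and *Esr1*. PTH raised 8 of them and lowered 1 in WT cells, and raised 10 and lowered 2 in Y428F cells. Over all genes tested, 6.88% were higher and 4.91% lower in WT cells, and 6.61% and 5.78% in Y428F cells. *Srf*, the factor of serum-induced genes, rose from 74.3 to 235 CPM in WT cells (log2 fold change 1.67, adjusted p = 2.25e-08, edgeR) and from 78.1 to 182 CPM in Y428F cells (1.22, 2.49e-10). *Vgll3*, a TEAD cofactor, rose by 1.01 and 0.93, and *Tead1* by 0.78 and 0.72. *Tead4* rose by 1.14 in WT cells, from 6.04 to 13.3 CPM, and by 0.55 in Y428F cells, from 12.8 to 18.7 CPM, and *Yap1* rose by 0.36 (adjusted p = 0.00154) and 0.22 (adjusted p = 0.00739). In the direct test of the responses, that of *Srf* was smaller in Y428F cells by 0.44 on the log2 scale (adjusted p = 0.0456), and that of *Junb*, an AP-1 subunit, was larger by 0.69 (adjusted p = 0.0215). Between the lines with vehicle, 3 regulators were higher and 11 lower in Y428F cells, beside 22.4% and 22.7% of all genes. *Lef1*, a WNT effector, fell from 23.4 to 2.16 CPM (log2 -3.44) and *Egr1* from 17.4 to 7.29 CPM (-1.25). *Tead4* was higher (1.08) and *Yap1* lower (-0.37).

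Of 19 other YAP targets, 18 were tested, and PTH raised 5 and lowered 2 in WT cells and raised 6 and lowered 1 in Y428F cells, where 11.8% and 12.4% of all genes were called. *Crim1*, which tethers BMPs at the cell surface, rose by 0.84 in WT and 0.68 in Y428F cells, and *Lats2*, the Hippo kinase that acts back on YAP, by 0.68 and 0.75. *Ankrd1*, a standard YAP reporter, rose by 0.82 in WT cells, from 93.8 to 165 CPM, and by 0.44 in Y428F cells, from 149 to 202 CPM, without a called difference between these responses (adjusted p = 0.169, edgeR). Among these targets 1 difference in response was called, that of the tissue factor gene *F3* (0.49, Y428F minus WT, adjusted p = 0.0271, edgeR). *Gadd45a*, a stress gene, fell by 0.74 and 0.51. None of these matched the log2 change of *Ccn2*. With vehicle, 5 of these targets were higher and 7 lower in Y428F cells, in the comparison that called 45.1% of all genes. The lower ones included *Ccdc80* (log2 -1.18) and *F3* (-1.12), while *Ankrd1* had 93.8 CPM in WT cells and 149 CPM in Y428F cells, without overlap. Of the CCN members, among which *Ccn1* and *Ccn2* are the YAP reporters, 4 were higher and 1, *Ccn5*, was lower. The median log2 difference was -0.07 over the other targets, 1.13 over the CCN members and 0.01 over all genes.

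Of 15 genes for receptors of CCN proteins 14 were tested, with 3 higher and 0 lower with PTH in WT cells and 2 higher and 0 lower in Y428F cells, where 6.88% and 6.61% of all genes were higher. The syndecan *Sdc4* rose by 0.58 and 0.79 on the log2 scale, *Fgfr2* by 0.50 in each line, and the fibronectin receptor subunit *Itga5* by 0.67 in WT cells (adjusted p = 5.88e-05, edgeR), with a smaller response in Y428F cells (difference -0.50, adjusted p = 0.025). Of 14 secreted and matrix partners, 10 were tested in WT cells and 11 in the fit of all libraries, and 1 was higher and 1 lower in each line, where 6.88% and 6.61% of all genes were higher and 4.91% and 5.78% lower. *Tgfb2* rose by 0.51 and 0.57, *Vegfa* was lower in WT cells (-0.43, adjusted p = 0.000591), and *Bmp4* was lower in Y428F cells (-0.43, adjusted p = 0.0161). The *Vegfa* response also had a called difference, Y428F minus WT, of 0.37 (adjusted p = 0.0372, edgeR). Of 7 proteases that cut CCN proteins 5 were tested, and edgeR called none of them for PTH in either line, at medians of 0.10 and -0.09. At an unadjusted p under 0.05, edgeR gave 0 of them in WT cells and 1 in Y428F cells (*Mmp9*), beside 25.2% and 24.4% of all genes, and DESeq2 called 0 in each line.

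Between the lines with vehicle, 1 receptor was higher and 4 were lower in Y428F cells, 1 partner was higher and 5 were lower, and 3 proteases were lower, in a comparison where 45.1% of all genes were called, so these counts alone do not set the lists apart. The laminin receptor subunit *Itga6* went from 25.4 to 98.3 CPM (log2 1.96, adjusted p = 7.01e-15, edgeR). *Itgb5*, *Lrp1* and *Itgb1* were lower (-0.53, -0.47 and -0.27). *Lrp1*, a long transcript, varied within the groups, with 1396, 1601 and 2092 CPM in WT cells and 1325, 1261 and 1099 in Y428F cells. The part of transcript length in its difference was not tested. *Bmp4* had 1 to 7 counts in the 6 WT libraries, against 478, 509 and 488 in Y428F cells with vehicle and 342, 387 and 322 with PTH. Fibronectin (*Fn1*, -0.54) and *Tgfb1* (-0.75) were lower, as were the metalloproteases *Mmp9* (-2.16), *Mmp14* (-0.88) and *Mmp2* (-0.61).

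**Figure D5:**
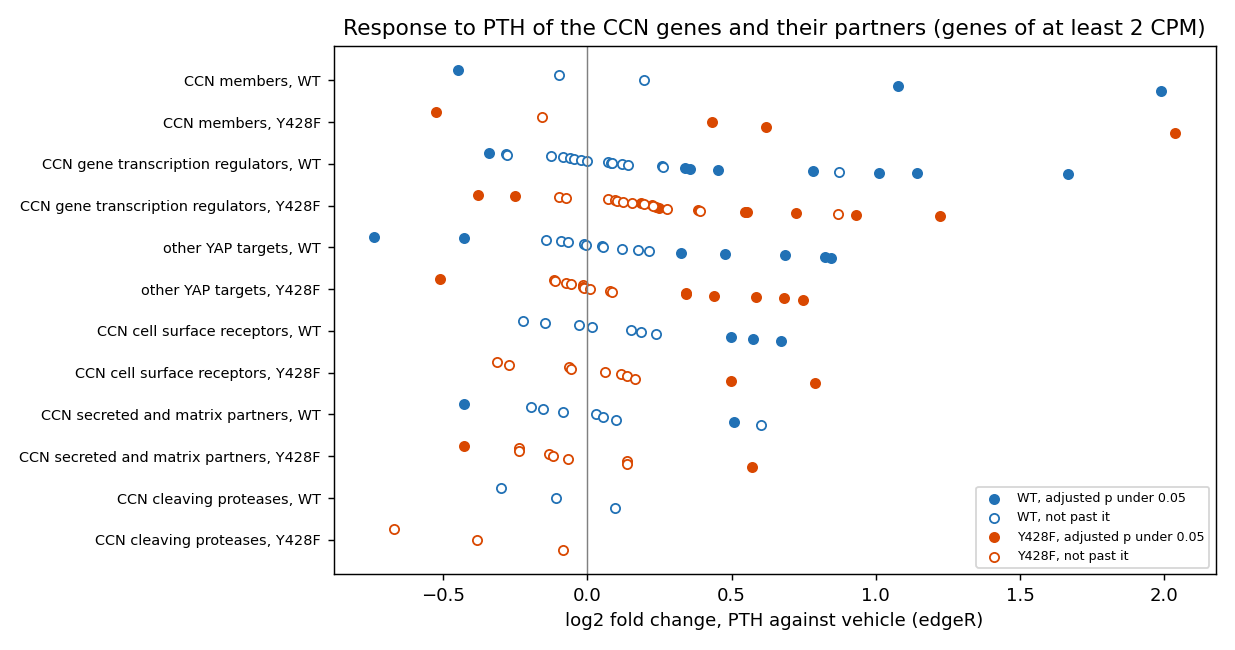
Log2 fold changes for PTH against vehicle (edgeR) of the CCN genes and of partner-list genes whose mean reached 2 CPM, WT in blue and Y428F in red, filled where the adjusted p was under 0.05. *Ccn2* lies farthest to the right in both lines (1.99 and 2.04), followed by *Srf* (1.67 and 1.22).

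Across the 12 libraries the members did not follow a single pattern. On log2 CPM, Pearson's r was 0.815 between *Ccn1* and *Ccn2*, 0.911 between *Ccn3* and *Ccn4*, 0.110 between *Ccn1* and *Ccn3* and -0.992 between *Ccn4* and *Ccn5*. These libraries share 4 groups, so the values describe group means more than libraries. Likeness was sought among 11218 genes whose mean reached 2 CPM. Those most like *Ccn1* were *Slc2a1* (the glucose transporter GLUT1, r = 0.982), *Ppp1r12a* (a subunit of myosin phosphatase, 0.975) and *Cnn2* (a calponin, 0.973). For *Ccn2* they were *Fam107b* (0.994), *Fgd3* (0.987) and *Wdr43* (0.986). For *Ccn3* they were *Ivd* (0.996), *Gas6* (0.996) and *Ephx2* (0.995). *Ccn4* was closest to *Slc25a32* (0.995) and *Gclc* (0.990), and *Ccn5* to *Tk2* (0.994), *Mmp19* (0.994) and *Eeig1* (0.993).

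After each line was centered on its own mean, which leaves mainly the response to PTH, the closest genes changed. They were *Fhdc1* (0.989), *Wdr1* (0.987), an actin-disassembly cofactor, and *Hbegf* (0.987), an EGF receptor ligand, for *Ccn1*. For *Ccn2* they were *Slc30a1* (a zinc exporter, 0.995), *Cald1* (caldesmon, 0.992) and *Gfod1* (0.992). Likeness was lower for *Ccn3*, at 0.939 with *Ticam1*, 0.935 with *Palb2* and 0.935 with *Ppfia3*, and for *Ccn4*, at 0.959 with *Lin54*, 0.949 with *Slc7a11* and 0.948 with *Styk1*. *Ccn5* was closest to *Rnf135* (0.978), *Cog4* (0.966) and *Tead2* (0.965).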

How the data were processed

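Poly-A RNA-Seq of 12 libraries was read from 1 matrix, in which the authors deposited expected counts per gene from RSEM after mapping with STAR 2.7.10b to GRCm39 with the GENCODE basic annotation, unscaled for library size. Strand settings were not given in the sources used here. Totals ranged from 17127897 to 19057319 counts (median 17740980), replicates differed by more than counting noise (chi-square per degree of freedom 2.87 to 14.2), and intervals on counts of 0 cover counting error only. Groups came from the titles. The authors' DESeq2 results were not used.

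Rounded counts were tested with edgeR 4.0.16 in R 4.3.3 (quasi-likelihood test, TMM, total of at least 10 counts, Benjamini-Hochberg over all genes tested, called at an adjusted p under 0.05). PTH in WT cells was fitted on 6 libraries (15583 genes), the other comparisons on 12 (17691 genes). Confidence intervals are 95%. Symbols and positions came from GENCODE vM39 (56236 IDs matched, 744 not), and upstream bases from GRCm39. The Ccn2 to Ccn1 ratio used 0.5 added to each count. The members and the lists were chosen with earlier results of these data known. Genes of the other lists were drawn from those called, with a mean of at least 2 CPM, at most 4 a list and comparison by size of the log2 fold change. Not every gene that met these limits is named in the text. *Yap1* and the cell type markers could be named in any comparison. Values of *Ankrd1* in Y428F cells with vehicle and with PTH, of *Tead4* in Y428F cells with PTH, and of *Mmp9*, were added after they were seen. Genes most like a member were those with the 3 highest correlations. A gene that this rule named and an upstream sequence are not reported here. Fits were tested on simulated data. Alternatives were DESeq2 1.42.0, other scalings, filters and limits, the replicate block, ratio pseudocounts of 0 and 1, exon-union lengths, and each library left out. Same-numbered libraries did not deviate together (mean r 0.0029 over 18 pairs, -0.143 to 0.261).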

Additional observations from a re-analysis of the deposited data

How the results depend on the processing

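The direction and call of *Ccn1* and *Ccn2* for PTH in both lines, and of all members but *Ccn1* between the lines, held under every alternative run. At an adjusted p under 0.01, *Ccn5* in WT cells (-0.45, adjusted p = 0.0104) was not called, and it ranged from -0.54 to -0.36 with each library left out. *Ccn3* in Y428F cells was called with DESeq2 (-0.16), library totals (-0.20) and at least 10 counts in every library (-0.17), and ranged from -0.19 to -0.13 over libraries left out. The *Ccn1* difference between lines with PTH was 0.02 with library totals and -0.14 to 0.02 over libraries left out. The difference in the *Ccn1* response was called with DESeq2 (-0.45) and with no filter on low counts (-0.44), so that 1 member was called in each in place of 0, and ranged from -0.54 to -0.38, with 0 to 1 members called, over libraries left out. The same differences ranged from -0.06 to 0.16 for *Ccn2* and from -0.16 to 0.04 for *Ccn5*, and turned sign. They ranged from -0.1 to 0 for *Ccn3* and from 0.13 to 0.34 for *Ccn4*. With PTH in WT cells, *Ccn4* ranged from 0.1 to 0.31 and *Ccn3* from -0.13 to -0.06 over libraries left out, and neither was called. The ratio changes ranged from 0.83 to 0.95 in WT cells, 1.38 to 1.45 in Y428F cells and 1.12 to 1.18 for both. The causes were not tested.

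Over all genes, the 1837 calls for PTH in WT cells became 841 at 0.01 and 905 to 2211 over libraries left out, the lowest without the first PTH library. The 2192 calls in Y428F cells became 1135 at 0.01 and 1435 to 2515. The 73 calls for the difference in response became 110 with DESeq2, 216 with no filter, 22 at 0.01 and 24 to 89. The share of calls that were higher moved from 58.4% to 38% in WT cells and from 53.4% to 38.1% in Y428F cells with library totals alone. With the length as the union of exons, RPKM levels in WT cells with vehicle were 1.64 for *Ccn2* and 5.51 for *Ccn4*.

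The replicate number as a block, which the check of pairing did not bear out, changed no call of a member. It gave log2 fold changes of 1.07 for *Ccn1* and 1.98 for *Ccn2* with PTH in WT cells, -0.45 (adjusted p = 0.0822) for the difference in the *Ccn1* response, and 1643 calls for PTH in WT cells.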
